A study of Rattus norvegicus with 9 samples.

Results

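The RAE230A probesets of 10 rat genes that cut extracellular matrix or restrain the enzymes that do so were compared in a resistance artery. The genes are the matrix metalloproteinases Mmp2, Mmp3, Mmp9, Mmp11, Mmp14 and Mmp23, the related protease Adamts1, and the tissue inhibitors Timp1, Timp2 and Timp3. All probesets with one of these symbols in the platform annotation were taken, which gave 16 of the 15923 probesets on the array. RNA came from the first side branch of the saphenous artery, a vessel of the leg, of male rats aged 16 weeks. Spontaneously hypertensive rats (SHR), an inbred strain with high blood pressure, received no treatment. ACTH rats were Wistar-Kyoto rats given adrenocorticotropic hormone under the skin for the last 4 weeks, at 0.1 mg/kg/day in the sample labels, whereas the methods of the study state another dose. Wistar-Kyoto rats (WKY), the normotensive strain, were untreated. There were 3 arrays per group, and each held RNA of 2 or 3 pooled rats, so spread between arrays is spread between pools.

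Matrix metalloproteinases are zinc-dependent enzymes that are made as inactive precursors and, once activated, cut collagens, elastin, laminin and proteoglycans. The tissue inhibitors bind the active site of the enzymes, and the balance of both sets how fast the matrix of a vessel wall is turned over when the wall is rebuilt. In arteries these proteins come from smooth muscle cells, endothelial cells, adventitial fibroblasts and macrophages. Much of their control lies after transcription, in secretion, activation and inhibition, and messenger RNA was the only quantity measured here.

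All 7 smooth muscle genes on the array were above background, as were all 8 endothelial genes. Of 9 skeletal muscle genes on the array, Actn3, Mb, Myh2, Myh4, Tnni2 and Tnnt3 were not above background, but 7 of the list's 13 probesets were, those of Acta1, which smooth muscle also expresses, Ckm and Myh1. The list's summed signal was 1913 to 2090 in SHR, 1787 to 2113 in ACTH and 1904 to 2384 in WKY. These sums hold opposite differences. Acta1 averaged 893 in SHR, 708 in ACTH and 477 in WKY, and Ckm was also highest in SHR. Every Myh1 probeset had its lowest mean in SHR and its highest in WKY, the brightest with 492 in SHR, 518 in ACTH and 619 in WKY. Probesets of other surrounding tissue were also above background, 5 of 7 on the adipocyte list and 5 of 9 on the nerve sheath list. Background on an array was taken as the 95th percentile of 67 probesets of genes of other organs, and it was 24.1 to 45.4 signal units over the 9 arrays. Signals are MAS5 intensities, scaled to the same trimmed mean on every array. Pearson's r of log2 signals between arrays of one group was 0.951 to 0.972 in SHR, 0.967 to 0.979 in ACTH and 0.956 to 0.960 in WKY. The 3'/5' signal ratio of GAPDH, which grows as RNA is shortened, was 3.57 to 5.16 in SHR, 3.67 to 4.52 in ACTH and 4.91 to 5.99 in WKY. Scanning took 4 days. One day held SHR 3 and the ACTH arrays, another WKY 2 and the other SHR arrays, and WKY 1 and WKY 3 had a day to themselves, so no day held ACTH as well as WKY arrays. SHR were compared with WKY, ACTH with WKY, and SHR with ACTH. SHR differed from the other 2 groups in strain as well as in the form of hypertension, so these cannot be told apart in comparisons with SHR.

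Of the 10 genes, 8 had a probeset above background in all 3 arrays of all 3 groups, Mmp11 missed it on 1 array, and Mmp9 was not above it on any. Of the 16 probesets, 12 were above background in all 3 arrays of at least 1 group, against 56.7% of all probesets that are not array controls. The same 12 were among the 57.3% of probesets with the highest signals, which entered the fits. The others, which were above background on no array, were both probesets of Mmp9, 1 of Mmp2 and 1 of Timp3.

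**Figure D1:**
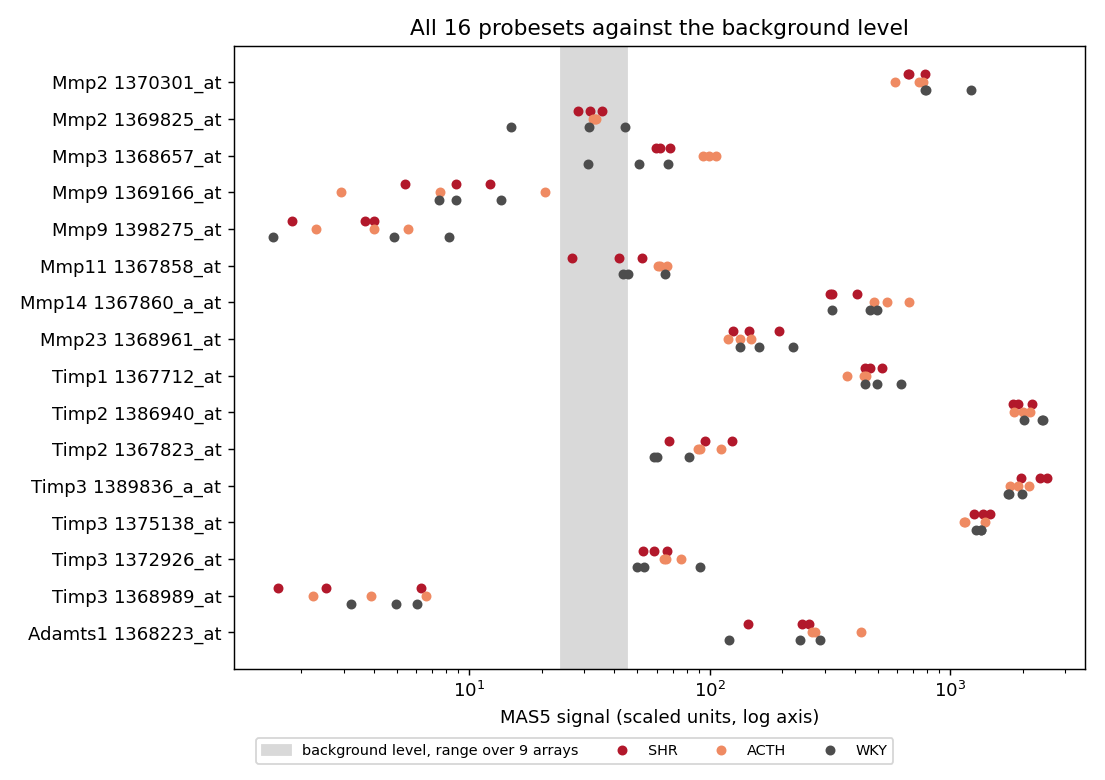
MAS5 signal of each of the 16 probesets (rows) on 9 arrays, on a log axis in scaled units, with SHR, ACTH and WKY arrays in rows from top to bottom; the grey band is the background level, 24.1 to 45.4 over the arrays. Both Mmp9 probesets, Timp3 1368989_at and Mmp2 1369825_at lie below or within the band, and the main Timp2 and Timp3 probesets lie far above it.

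In the changes between groups no probeset of these genes passed an adjusted p of 0.05 (limma, Benjamini-Hochberg over all fitted probesets). This held for 0 of 12 in SHR against WKY, where 2.04% of all fitted probesets were called, for 0 of 12 in ACTH against WKY, where 1.21% were, and for 0 of 12 in SHR against ACTH, where 3.4% were. The F test over the 3 groups also called 0 of 12, against 4.1% of all. At an unadjusted p of 0.05, limma gave 0 of 12 in SHR against WKY, 2 of 12 in ACTH against WKY and 3 of 12 in SHR against ACTH, beside 16.4%, 12.5% and 17.2% of all fitted probesets. At the thresholds of the methods, an F test p of 0.02 and a contrast p of 0.015 without moderation, 0 of 12 passed in each comparison, beside 5.5%, 4.13% and 6.61% of all. The log2 changes of the 12 probesets had a median size of 0.24 in SHR against WKY, 0.33 in ACTH against WKY and 0.21 in SHR against ACTH, and over all fitted probesets 0.19, 0.17 and 0.19. A missed threshold does not show equal levels: at the median standard error of these probesets, 0.21, a log2 change of 0.95, 1.02 and 0.88 would have been needed for a call in the 3 comparisons. The 95% interval of the change reached past 2-fold for 0 of 12 in SHR against WKY, 3 of 12 in ACTH against WKY and 4 of 12 in SHR against ACTH. The comparisons share arrays, so their values are given side by side below and not combined. In RNA of a whole vessel, fewer cells of a type and less RNA per cell cannot be told apart.

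**Figure D2:**
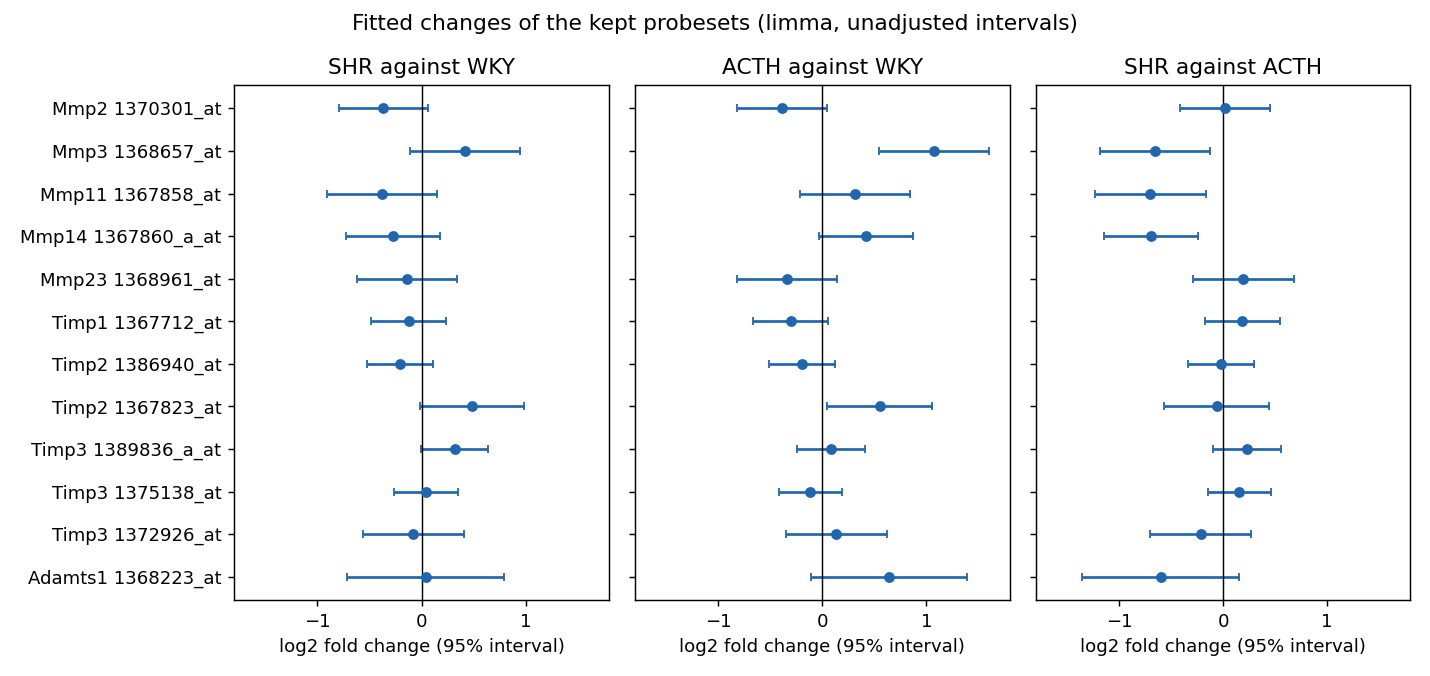
Fitted log2 fold change (x axis) with its unadjusted 95% interval for each of the 12 fitted probesets (rows), in SHR against WKY, ACTH against WKY and SHR against ACTH. Mmp3 in ACTH against WKY lies farthest from 0, at 1.07, and most other intervals hold 0.

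Mmp3, or stromelysin 1, which cuts proteoglycans, laminin and fibronectin and activates other metalloproteinases, had the highest signals in ACTH arteries. Its signal was 62.1, 68.2 and 59.8 in SHR, 99.1, 106.1 and 94.0 in ACTH and 31.1, 67.2 and 50.8 in WKY. All 3 ACTH arrays were above every other array, and SHR overlapped WKY. WKY 1 and WKY 3 were close to the background of their arrays, 24.1 and 45.4. Both were below the highest signal of the other-organ genes there, 38.9 and 54.1. The change in ACTH against WKY was 1.07 ± 0.24 on the log2 scale (standard error, as for all changes below, 3 arrays per group), or 2.10-fold, with a 95% interval of 0.55 to 1.60 and a limma adjusted p of 0.0667. This was the lowest adjusted p of the 12 probesets in the 3 comparisons. The same probeset was 0.65 ± 0.24 lower in SHR than in ACTH by point estimate (limma adjusted p = 0.188), and 0.42 ± 0.24 above WKY in SHR (limma adjusted p = 0.41).

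The Mmp3 value in ACTH against WKY depended on WKY 1, the lowest array, and on WKY 2, the highest WKY array. Without WKY 1 the log2 change was 0.77 (limma adjusted p = 0.101), and without WKY 2 it was 1.32 (limma adjusted p = 0.0192), which passed the threshold. With scan day as a block it was 0.69 (limma adjusted p = 0.529), and with the GAPDH ratio as a covariate 1.18 (limma adjusted p = 0.364). Within scan days, SHR 3 was 0.74 lower than the mean of the ACTH arrays on the log2 scale, and SHR 1 and SHR 2 averaged 0.05 lower than WKY 2. Macrophages are a source of metalloproteinases, and the summed signal of 12 macrophage probesets was 1579, 1334 and 1012 in SHR, 1907, 2143 and 1479 in ACTH and 505, 1306 and 595 in WKY. Of 10 macrophage genes on the array 8 had a probeset above background, while Ptprc and Itgam did not. The complement gene C1qa averaged 129 in SHR, 249 in ACTH and 92.4 in WKY. The lysozyme gene Lyz2 averaged 787 in SHR, 995 in ACTH and 389 in WKY. C1qb, Cd14, Cd68 and Csf1r also had their highest mean in ACTH. In contrast, Fcgr2b averaged 28.1 in SHR, 53.2 in ACTH and 54.3 in WKY. The brighter Aif1 probeset averaged 47.8 in SHR, 40.7 in ACTH and 39.2 in WKY. As for Mmp3, WKY 2 had the highest summed macrophage signal of the WKY arrays. The 8 macrophage probesets fitted had a median log2 change of 0.78 in SHR against WKY, 1.13 in ACTH against WKY and -0.60 in SHR against ACTH. In ACTH against WKY 0 were called. In SHR against WKY 0 were called higher and 1 lower, and in SHR against ACTH 0 higher and 2 lower. The part of macrophage RNA in the Mmp3 values was not tested.

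**Figure D3:**
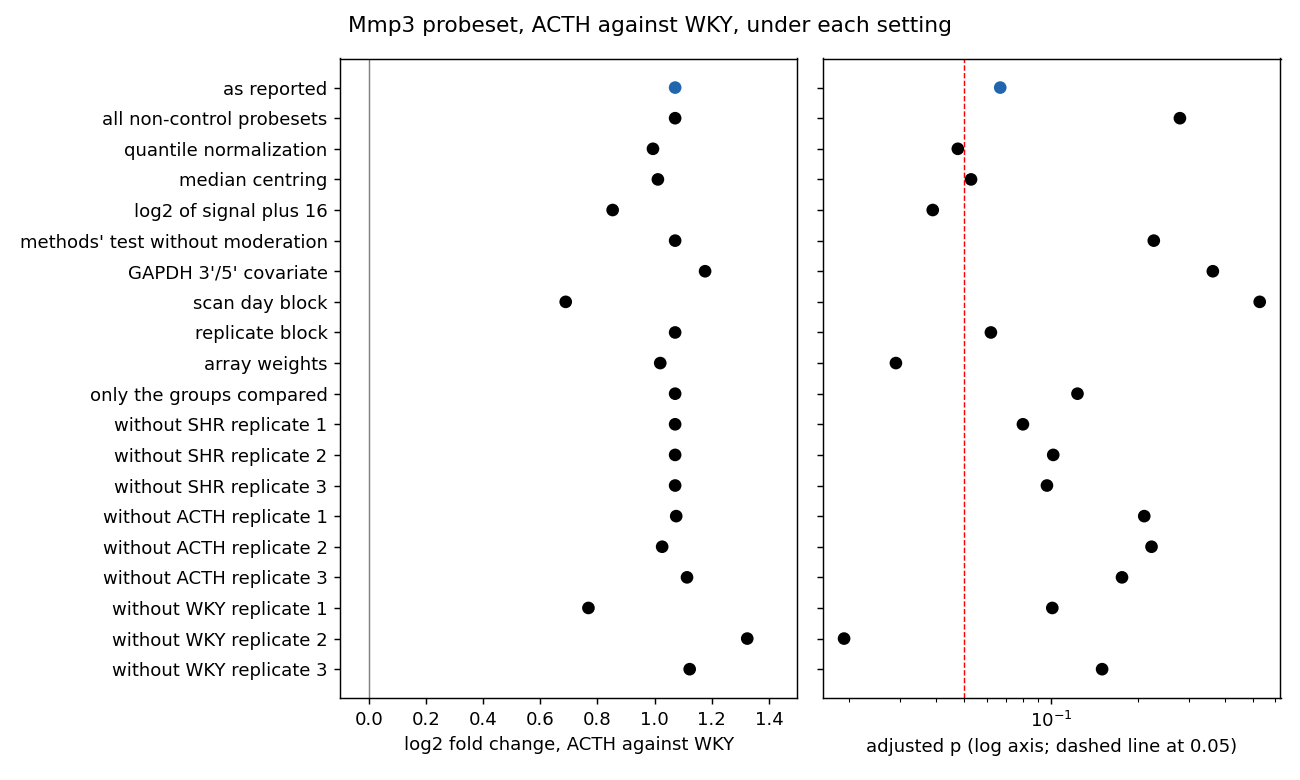
Log2 fold change of the Mmp3 probeset in ACTH against WKY (left) and its adjusted p on a log axis (right) under each setting (rows), the reported one in blue. All changes are positive, from 0.69 to 1.32, and 4 of the adjusted p-values lie left of the dashed line at 0.05.

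The promoter of Mmp3 is shown because it holds 2 letter matches to sites of AP-1, the Fos and Jun family of factors known to drive Mmp3 in cultured human cells. Promoters were taken from RefSeq (build GRCr8, 250 bases before to 50 after the start) and 7 of the 10 genes matched an entry. Both strands were searched for TGAGTCA, found in Mmp3 alone of the 7 and in 4.63% of 33469 rat promoters, and for TGAGTAA, found in Mmp3 and Timp1 and in 2.9% of promoters. The full palindromic glucocorticoid receptor element was in 0 of the 7 and in 0.0149% of all. A match is a run of letters and no evidence of binding. In the promoters of Mmp3 (chr8:12925031-12925330, plus strand) and Timp1 (chrX:3771073-3771372, minus strand) below, capitals mark the matches, which start at bases 107 and 180 in Mmp3 and at base 143 in Timp1.
Mmp3: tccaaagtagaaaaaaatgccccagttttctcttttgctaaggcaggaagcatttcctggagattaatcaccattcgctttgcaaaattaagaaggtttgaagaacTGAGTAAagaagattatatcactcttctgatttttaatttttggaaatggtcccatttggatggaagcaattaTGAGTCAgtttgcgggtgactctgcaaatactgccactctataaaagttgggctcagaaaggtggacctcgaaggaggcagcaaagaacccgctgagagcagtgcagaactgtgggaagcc
Timp1: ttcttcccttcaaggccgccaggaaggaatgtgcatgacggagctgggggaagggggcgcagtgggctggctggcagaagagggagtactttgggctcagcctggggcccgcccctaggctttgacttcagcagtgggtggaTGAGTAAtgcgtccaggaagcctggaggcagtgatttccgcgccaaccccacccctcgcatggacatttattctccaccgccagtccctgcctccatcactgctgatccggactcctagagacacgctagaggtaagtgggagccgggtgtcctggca

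Mmp14, the membrane-bound enzyme that activates the precursor of Mmp2 at the cell surface, had the lowest adjusted p of the 12 probesets in SHR against ACTH. Its signal was 410.5, 323.4 and 315.5 in SHR, 674.3, 544.0 and 479.7 in ACTH and 463.6, 494.0 and 322.9 in WKY. The SHR arrays lay below every ACTH array, and both groups overlapped WKY. In SHR against ACTH the log2 change was -0.69 ± 0.20 with a 95% interval of -1.14 to -0.24 (limma adjusted p = 0.104). With array weights it was -0.86 (limma adjusted p = 0.0178), the only setting tried that called it, and within the shared scan day SHR 3 was 0.83 below the ACTH mean. Against WKY the values were -0.27 ± 0.20 in SHR and 0.42 ± 0.20 in ACTH (limma adjusted p = 0.537 and 0.453). Without WKY 3 these were -0.46 and 0.23, and without WKY 2 they were -0.16 and 0.53.

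Mmp2, gelatinase A, which degrades denatured collagen and basement membrane collagen, had its lowest signals in the 2 hypertensive groups. The probeset 1370301_at gave 666.3, 781.9 and 672.5 in SHR, 741.0, 767.9 and 591.0 in ACTH and 783.9, 1213.0 and 788.8 in WKY. Neither hypertensive group overlapped WKY, but the gap was narrow, and WKY 2 stood well above the other WKY arrays. The log2 changes were -0.37 ± 0.19 in SHR against WKY and -0.39 ± 0.19 in ACTH against WKY (limma adjusted p = 0.382 and 0.479). Without WKY 2 they were -0.16 and -0.18. On the scan day that WKY 2 shared with SHR 1 and SHR 2, SHR was 0.75 lower. The other Mmp2 probeset, 1369825_at, lay between 15.0 and 44.2 and was above background on no array.

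Mmp11, or stromelysin 3, which has little activity on matrix proteins and is known from stromal cells, was close to background. Its signal was 26.8, 41.8 and 52.1 in SHR, 66.2, 60.9 and 61.8 in ACTH and 64.8, 43.7 and 45.6 in WKY, and SHR 1 alone was not above background. The ACTH arrays lay above all SHR arrays and overlapped WKY 1. The log2 change in SHR against ACTH was -0.70 ± 0.24 (limma adjusted p = 0.162), but -0.43 without SHR 1 and -0.27 with scan day as a block. Against WKY it was -0.38 ± 0.24 in SHR, but -0.11 without SHR 1. In ACTH against WKY it was 0.32 ± 0.24, but -0.12 with scan day as a block and 0.67 with the GAPDH covariate.

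Mmp23, an enzyme anchored in the membrane through its amino-terminal end, overlapped between all groups. Its signal was 125.2, 194.0 and 145.1 in SHR, 148.3, 119.3 and 132.8 in ACTH and 133.5, 160.7 and 221.0 in WKY. The log2 change was -0.14 ± 0.22 in SHR against WKY, -0.34 ± 0.22 in ACTH against WKY and 0.20 ± 0.22 in SHR against ACTH. Mmp9, gelatinase B, known from neutrophils and macrophages, had signals of 2.9 to 20.7 on probeset 1369166_at and 1.5 to 8.2 on 1398275_at over all arrays. As neither probeset was above background on an array, no fold is given.

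Adamts1, a secreted protease that cuts the proteoglycans versican and aggrecan, had the largest standard error of the 12 probesets. Its signal was 241.8, 257.4 and 143.8 in SHR, 266.9, 273.2 and 426.6 in ACTH and 120.2, 287.7 and 238.0 in WKY. The ACTH arrays lay above the SHR arrays by a small margin and overlapped WKY. The log2 change was 0.04 ± 0.34 in SHR against WKY, 0.64 ± 0.34 in ACTH against WKY and -0.60 ± 0.34 in SHR against ACTH (limma adjusted p = 0.965, 0.504 and 0.41). Leaving out WKY 1 gave 0.27 in ACTH against WKY, leaving out SHR 3 gave -0.33 in SHR against ACTH, and leaving out ACTH 3 gave 0.42 and -0.38 in these comparisons. With scan day as a block the 2 changes were larger, at 0.92 and -1.13, and within the shared day SHR 3 was 1.13 below the ACTH mean. With the GAPDH covariate they were 0.16 and -0.57, in the same order.

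**Figure D4:**
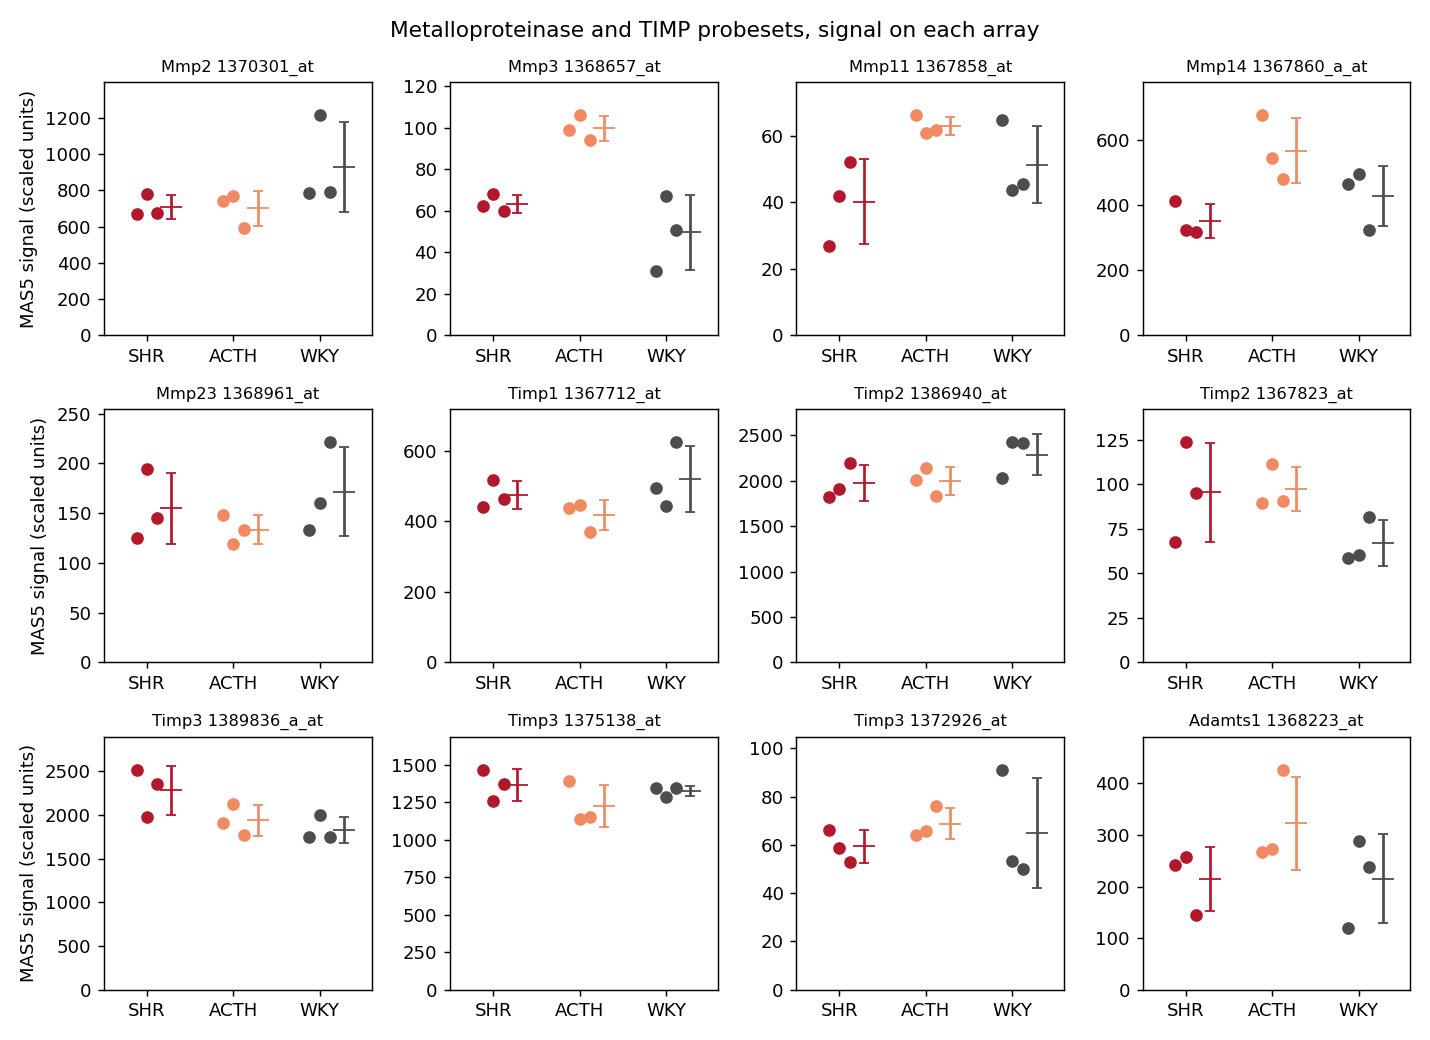
MAS5 signal (y axis, scaled units, from 0) of the 12 fitted probesets on each SHR, ACTH and WKY array (points), with the mean and SD of 3 arrays beside them. Mmp3 is highest in all 3 ACTH arrays, at 94.0 to 106.1, and the Timp2 1386940_at and Timp3 1389836_a_at signals lie between 1742 and 2518.

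Groups whose arrays did not overlap were counted over the 12 probesets. In SHR against WKY 1 did not overlap (Mmp2), beside 19.4% of all fitted probesets. In ACTH against WKY 3 did not (Mmp2, Mmp3 and Timp2 1367823_at), beside 20.5%. In SHR against ACTH 4 did not, beside 24.9%, and these were Mmp3, Mmp11, Mmp14 and Adamts1, each with the lower signals in SHR, as in 13.3% of all. The summed fibroblast markers ran from 11489 to 14118 in SHR, 8505 to 10614 in ACTH and 11869 to 13839 in WKY, and all 8 fibroblast genes had a probeset above background. The low ACTH sums lay in the collagens, which are also counted among the matrix substrates below: Col3a1 averaged 4732 in SHR, 2490 in ACTH and 4175 in WKY, and the brighter Col1a1 probeset 1505 in SHR, 683 in ACTH and 2529 in WKY. Of the other fibroblast markers, Dcn, Pdgfra and Fbln1 had their highest mean in ACTH. Dcn averaged 2958 in SHR, 3644 in ACTH and 2580 in WKY. Pdgfra averaged 961 in SHR, 1049 in ACTH and 748 in WKY. Lum, at 573 in SHR, 578 in ACTH and 737 in WKY, and the brighter Thy1 probeset were highest in WKY. Both Dpt probesets were highest in SHR, and the brighter averaged 902 in SHR, 575 in ACTH and 621 in WKY. The part of fibroblast RNA in the differences between groups was not tested.

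Among the inhibitors, Timp1, a secreted inhibitor of most metalloproteinases, had signals of 440.6, 517.7 and 464.3 in SHR, 437.5, 446.5 and 370.6 in ACTH and 493.4, 442.9 and 623.4 in WKY. All groups overlapped. The log2 change was -0.12 ± 0.16 in SHR against WKY, -0.30 ± 0.16 in ACTH against WKY and 0.18 ± 0.16 in SHR against ACTH (limma adjusted p = 0.756, 0.505 and 0.622). The unadjusted intervals, -0.48 to 0.24 and -0.66 to 0.06 against WKY, lay within a 2-fold change in either direction, in a fit that does not cover scan day. With scan day as a block the changes against WKY were 0.11 in SHR and -0.05 in ACTH.

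Timp2, which inhibits metalloproteinases and also binds Mmp14 in the complex that activates Mmp2, had 2 probesets whose point estimates against WKY had opposite signs. The probeset 1386940_at gave 1821.7, 1904.1 and 2195.8 in SHR, 2012.3, 2137.9 and 1834.9 in ACTH and 2026.4, 2419.2 and 2409.7 in WKY. The probeset 1367823_at gave 67.6, 123.3 and 95.03 in SHR, 89.4, 111.5 and 90.7 in ACTH and 58.6, 60.1 and 81.8 in WKY. The brighter probeset had log2 changes of -0.21 ± 0.14 in SHR and -0.19 ± 0.14 in ACTH against WKY, and the dimmer one 0.49 ± 0.23 and 0.55 ± 0.23. None of these was called, and the lowest limma adjusted p was 0.318. The ratio of the brighter to the dimmer probeset on the same array was 26.9, 15.4 and 23.1 in SHR, 22.5, 19.2 and 20.2 in ACTH and 34.6, 40.3 and 29.4 in WKY. It was lower in all 6 arrays of hypertensive rats than in the 3 WKY arrays, by 0.70 on the log2 scale in SHR and 0.74 in ACTH. An exact two-sided permutation test gave p = 0.1 for each, the smallest p that 3 against 3 arrays allow, and p = 0.9 for SHR against ACTH. The ratio of Timp3 1389836_a_at to 1375138_at was 0.28 higher on the log2 scale in SHR than in WKY and 0.20 higher in ACTH. The same exact test gave p = 0.1 and 0.3 for these, and 0.6 for SHR against ACTH. Both ratios were examined after the probeset values had been seen. The 3'/5' ratio of GAPDH was, like the Timp2 ratio, highest in WKY as a group mean, and its part in either ratio was not tested.

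Timp3, the inhibitor that stays bound to matrix and also blocks proteases of the ADAM family, had its highest signals in SHR on the probeset 1389836_a_at. This gave 2518.4, 1976.3 and 2354.1 in SHR, 1913.6, 2124.9 and 1775.0 in ACTH and 1742.2, 1993.9 and 1745.5 in WKY. SHR 2 lay within the WKY range, and the log2 change was 0.32 ± 0.15 in SHR against WKY, 0.08 ± 0.15 in ACTH against WKY and 0.23 ± 0.15 in SHR against ACTH (limma adjusted p = 0.317, 0.88 and 0.464). The probeset 1375138_at gave 1466.2, 1257.6 and 1368.4 in SHR, 1387.6, 1136.5 and 1153.6 in ACTH and 1341.1, 1282.1 and 1345.5 in WKY. On it SHR was 0.04 ± 0.14 above WKY and ACTH differed from WKY by -0.12 ± 0.14, and its interval in SHR against WKY ended at 0.35. The third, 1372926_at, gave 52.9 to 66.3 in SHR, 64.2 to 76.1 in ACTH and 49.9 to 91.1 in WKY. The fourth, 1368989_at, gave 1.6 to 6.6 over all arrays and was above background on none.

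Of 40 further metalloproteinase and inhibitor genes that were listed, 19 were on the array with 25 probesets, of which 11 were fitted. Mmp7, Mmp8, Mmp10, Mmp12, Mmp13 and Mmp16 were not above background in all arrays of any group, nor were Adam9, Adam10 and Adamts7. Of these, Adamts7 was above it on SHR 1, at 72.8, and on some other arrays. Adam10 was above it on SHR 2, at 39.7, and ACTH 3, at 39.1. In SHR against WKY 1 of 11 rose and 1 fell, in ACTH against WKY 0 rose and 1 fell, and in SHR against ACTH 2 rose and 0 fell, with median log2 changes of -0.16, -0.32 and 0.20 over the 11. Over all fitted probesets 0.967% rose and 1.08% fell in SHR against WKY, 0.55% and 0.659% in ACTH against WKY, and 1.57% and 1.82% in SHR against ACTH.

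Adam23 is a membrane protein of the ADAM family without protease activity. Its dimmer probeset gave 4.2, 4.3 and 7.1 in SHR, 25.9, 30.5 and 4.1 in ACTH and 22.7, 10.9 and 7.0 in WKY. That probeset was above background on no array and was not fitted. The brighter Adam23 probeset gave 115.5, 74.5 and 88.1 in SHR, 29.4, 32.8 and 31.3 in ACTH and 53.7, 47.8 and 43.7 in WKY. The SHR arrays were above all others, and the log2 change was 0.92 ± 0.17 in SHR against WKY and 1.55 ± 0.17 in SHR against ACTH (limma adjusted p = 0.0248 and 0.00157). All ACTH signals of this probeset were below the background of those arrays, 36.3, 41.2 and 36.7. WKY 3 was also below its background, 45.4. The change against ACTH was thus taken against signals not told apart from background, so its size is uncertain. Adamts9, a secreted protease that cuts versican and aggrecan as Adamts1 does, gave 93.2, 103.3 and 133.1 in SHR, 46.1, 48.5 and 43.9 in ACTH and 133.0, 100.4 and 178.9 in WKY. Adamts9 was lowest in the ACTH arrays, with a log2 change of -1.53 ± 0.21 in ACTH against WKY and 1.24 ± 0.21 in SHR against ACTH (limma adjusted p = 0.00853 and 0.0117). Its ACTH signals were close to the background of those arrays, 36.3, 41.2 and 36.7. They were below the highest other-organ signals there, 47.1, 52.1 and 70.5. Adamtsl4, a matrix protein without protease domain, gave 436.0, 512.8 and 588.7 in SHR, 712.2, 712.0 and 639.5 in ACTH and 840.6, 834.4 and 828.1 in WKY. It was lowest in SHR, at -0.71 ± 0.14 against WKY (limma adjusted p = 0.0332). These calls varied with the processing: of the alternatives tried, Adam23 was called in 9 of 19 in SHR against WKY and 18 of 19 in SHR against ACTH, Adamts9 in 15 of 19 in ACTH against WKY and 15 of 19 in SHR against ACTH, and Adamtsl4 in 5 of 20, with no change of sign.

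Genes that activate, induce or clear metalloproteinases had 15 fitted probesets, of which 0 were called in SHR against WKY and 0 in ACTH against WKY. In SHR against ACTH 1 was lower, Jun, an AP-1 subunit, at -1.03 ± 0.21 (limma adjusted p = 0.0251), a call made in 13 of 20 alternatives. Of 36 fitted probesets of matrix substrates, 0 rose and 1 fell in SHR against WKY, 0 rose and 6 fell in ACTH against WKY, and 7 rose and 0 fell in SHR against ACTH, with medians of -0.29, -0.52 and 0.23. The one that fell in SHR was tenascin C (Tnc), at -1.82 ± 0.28 (limma adjusted p = 0.00718). In ACTH against WKY the fibrillar collagen chains Col1a1, at -1.91 ± 0.26, and Col1a2, at -1.08 ± 0.15, fell with the collagen-binding proteins Fmod and Sparc (limma adjusted p of 0.0149 or lower). In SHR against ACTH Sparc was 1.21 ± 0.17 higher, Fmod 0.89 ± 0.14, the fibrillar collagen Col3a1 0.92 ± 0.17 and the basement membrane collagen Col4a2 1.36 ± 0.27 (limma adjusted p of 0.0237 or lower). Over the alternatives the count of substrate probesets lower in ACTH than in WKY ran from 0 to 11, and the count higher in SHR than in ACTH also from 0 to 11. Col3a1 was called in 15 of 20 alternatives and Col4a2 in 11 of 20. Substrate transcripts passed the test in ACTH arteries while the 12 probesets of the proteases and inhibitors did not, a difference between lists that was not itself tested.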

How the data were processed

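Total RNA was amplified in 2 cycles and hybridised to 9 RAE230A arrays, 3 per group by the sample titles. The authors computed MAS5 signals and scaled them to a target of 150; the deposited intensity values are linear, without detection calls, and a mean trimmed by 2% at each end was 150.0 on every array. No version of MAS5 is given in the sources used here. Intensities reflect probe affinity as well as RNA level, so RNA levels of different genes were not ranked. Background status and the choice of fitted probesets do compare signals of different probesets, and this limit holds for them. The ratios of 2 Timp2 probesets and of 2 Timp3 probesets on the same array were compared only between groups.

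Of 15923 probesets, 57 controls were left out, and the 9098 with the highest third-highest signal were fitted. The methods state this number for probesets with detection calls of present in every replicate of 1 or more groups, so the sets can differ. Symbols came from the platform annotation; 12754 of 12789 probesets with 1 symbol had an identifier in the RefSeq table, and 0 symbols changed. Log2 intensities were fitted to the 3 groups with limma 3.58.1 (R 4.3.3; lmFit, eBayes), in which p-values are two-sided and adjusted over all fitted probesets by Benjamini-Hochberg, with a threshold of 0.05. The fit was tested on simulated data. With 3 arrays per group, their number limits the precision. The members and lists were chosen with earlier results of these data known; all member probesets were named, and of each list up to 4 called probesets per comparison with the lowest adjusted p. Background was set from 55 of 60 listed genes of other organs. Alternatives were quantile normalization, all probesets, a minimum mean signal of 100, log2 of signal plus 16, centring on the median, no moderation, the GAPDH ratio as a covariate, scan day or replicate number as a block, array weights, fits of the compared groups alone, each array left out, and other background levels. The residual degrees of freedom were 6, and 3 with scan day as a block, where ACTH against WKY runs through SHR arrays.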

Additional observations from a re-analysis of the deposited data

How the results depend on the processing

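Over 708 values of the 12 fitted probesets under the alternatives, 701 stayed on the side of the threshold reported, 7 were called where the reported value was not, and 0 reversed while called; the sign differed for 33 that were called under neither setting. In ACTH against WKY 1 probeset, Mmp3, was called with quantile normalization (log2 change 0.99, limma adjusted p = 0.0476), with log2 of signal plus 16 (0.85, adjusted p = 0.0389) and with array weights (1.02, adjusted p = 0.0290). In SHR against ACTH 1 probeset was called with array weights (Mmp14) and 1 with only the compared groups fitted (Mmp3, limma adjusted p = 0.0386). The F test called 1 probeset with quantile normalization, 1 with log2 of signal plus 16 and 2 with array weights. With 1 array left out, calls ranged from 0 to 0 in SHR against WKY, 0 to 1 in ACTH against WKY (without WKY 2), 0 to 1 in SHR against ACTH (Mmp3 without WKY 1, limma adjusted p = 0.0471) and 0 to 1 in the F test (without WKY 2). The number above background was 13 at the 90th percentile, 11 at the highest of the other-organ signals and 12 at the lowest signal that entered the fit.

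Replicate numbers did not pair the arrays: deviations of same-numbered arrays correlated at -0.067 to 0.128, and 4 of 9 arrays were closest to their own number. With the replicate number as a block, 0 of 12 were called in each comparison, and Mmp3 in ACTH against WKY had a limma adjusted p of 0.0619. Over all fitted probesets the calls in SHR against WKY, ACTH against WKY and SHR against ACTH were 186, 110 and 309, but 72, 0 and 52 with no filter, 26, 0 and 35 with scan day as a block, 90, 5 and 119 without moderation, 34, 0 and 288 with the GAPDH covariate, 155, 201 and 883 with array weights, and 97, 79 and 326 with only the compared groups; the cause was not tested. Leaving out an array gave 102 to 214, 33 to 133 and 111 to 324. At a mean signal of at least 100, Mmp3, Mmp11, Timp2 1367823_at and Timp3 1372926_at were left out and gave no value. The called genes of the other lists were put through the same alternatives after their values had been seen, and 0 changed sign.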
